A study of Mus musculus with 6 samples.

Results

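The immunity-related GTPases are 7 of the 22442 genes in the deposited expression table: Irgm1, Igtp, Irgm2, Iigp1, Ifi47, Tgtp1 and Tgtp2. They were chosen by name, as the rows whose symbol in the GENCODE M21 annotation belongs to this family of mouse interferon-inducible GTPases. RNA was sequenced from mTECs, a mouse renal tubular epithelial cell line. All 6 libraries came from cells that received LPS, a bacterial lipopolysaccharide that stimulates innate immune receptors, at 20 μg/ml for 24 h. The 3 libraries labelled LPS were from cells first transfected with a negative control, and the 3 labelled LPSKD were from cells transfected with an RNA directed at the transcription factor Stat3, an siRNA by the labels, while the study's list of reagents names an shRNA for mouse Stat3. The sample labels describe these cells as magnetically sorted, whereas the methods of the study describe an immortalised line. A single kind of cell was used, no library of cells without LPS was analysed here, and so induction of the GTPases by LPS itself was not measured.

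Immunity-related GTPases are made by mouse cells in response to interferons. They protect the cell against bacteria and parasites that live inside vacuoles. The regulatory members Irgm1, Igtp (also called Irgm3) and Irgm2 sit on the cell's own membranes and hold the other members in an inactive state there. The effector members Iigp1 (Irga6), Ifi47 (Irgd) and the Tgtp1 and Tgtp2 pair (Irgb6) gather on the membrane around the microbe and disrupt it. Loading of the effectors depends on the proteins that attach ATG8 to membranes, and guanylate-binding proteins and ubiquitin ligases follow to the same vacuole.

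In the libraries labelled LPSKD, 4 of the 7 members fell and none rose (limma and voom; 0 were higher also at an unadjusted p under 0.05). The 4 were all 3 regulators and the effector Tgtp1, with the regulator Irgm1 2.93 times lower and Tgtp1 5.12 times lower in mean FPKM. Tgtp1 and Tgtp2 are nearly identical in coding sequence, so the values of either alone are uncertain, and their sum was 2.81 times lower. The other 3 effectors, Ifi47, Iigp1 and Tgtp2, did not pass the test. The count was 3 without LPS replicate 2 or without LPS replicate 3, when Irgm2 was lost, and 2 with variances that did not depend on level, when Igtp and Irgm2 were lost. FPKM gives the sequenced fragments of a gene relative to its length and to all fragments in its library. Each gene was tested with limma on log2(FPKM + 0.1) over the 11723 genes whose mean FPKM reached 0.5, and a gene was called at a Benjamini-Hochberg adjusted p under 0.05. All 7 members passed that filter on low values. Of all tested genes, 1.66% were called lower, 1.57% higher and 3.23% in either direction. The median log2 fold change was -1.09 over the 7 members and -0.01 over all tested genes. In 5 of the 7 members, the 4 and Ifi47, every library labelled LPSKD was below every library labelled LPS, which held for 13.2% of all tested genes.

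Stat3 itself did not separate the groups. It stood at 34.6, 31.4 and 35.2 FPKM under the LPS label and at 30.8, 35.2 and 34.3 FPKM under the LPSKD label, a log2 fold change of -0.01 with a 95% interval of -0.17 to 0.14 (limma, adjusted p = 0.944). The groups are therefore named here only by their labels. The study separately reported knockdown of Stat3 in mTECs by real-time PCR and western blot, without linking those samples to these libraries. Library totals worked out from the FPKM values lay between 24084827 and 25422171 fragments, so depth was nearly even. Epithelial markers were abundant, and tubule markers varied widely in level. The summed FPKM of the 10 listed tubule markers was 3236 to 3314 under the LPS label and 3196 to 3229 under the LPSKD label. Most of that sum was the keratins Krt8 and Krt18, at 1205 and 1290 FPKM on average under the LPS label. There Cdh16 averaged 183 and Aqp1 4.33, and Lrp2, the endocytic receptor of the proximal tubule, was close to 0. The sum does not show the changes of single tubule markers, which are given below. Nothing in the labels says that the 3 libraries of a group came from separate cultures, and p-values then measure only the spread between these samples. In bulk RNA, fewer cells that make a transcript and less transcript per cell cannot be told apart.

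The promoters of the members are shown first, as sequence that the choice of members by name did not use. A match to the interferon response element lies just before the start sites of the 4 members that fell. Tgtp2, which did not pass the test, has such a match as well. A RefSeq promoter, 250 bases before the start site and 50 from it on, was found for 6 of the 7 members in the table for GRCm38.p6. None was found for Iigp1, so its promoter was not searched. Each was searched on both strands for GAAANNGAAA, the core of the interferon-stimulated response element, and for TTCNNNGAA, the gamma-activated site bound by Stat dimers. The 45 bases around the matches are printed 5′ to 3′, with matched bases in capitals. They lie at chr11:48871431-48871475 on the minus strand for Irgm1, chr11:58199497-58199541 on the plus strand for Igtp, chr11:58214888-58214932 on the plus strand for Irgm2, chr11:48992304-48992348 on the minus strand for Tgtp1 and chr11:49064263-49064307 on the minus strand for Tgtp2.
Irgm1: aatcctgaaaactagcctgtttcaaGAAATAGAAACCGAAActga
Igtp: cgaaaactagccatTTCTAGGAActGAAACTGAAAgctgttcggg
Irgm2: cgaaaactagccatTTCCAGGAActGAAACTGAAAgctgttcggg
Tgtp1: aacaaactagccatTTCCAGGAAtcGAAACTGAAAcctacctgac
Tgtp2: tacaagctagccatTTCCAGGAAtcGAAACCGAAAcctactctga

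The response element motif was found in 5 of these 6 promoters, against 3.44% of the 32851 mouse promoters in the table. Igtp, Irgm2, Tgtp1 and Tgtp2 held the gamma-activated site motif as well, in every case ending 2 bases before the response element motif. Of all promoters, 8.30% held the gamma-activated site motif and 0.454% held both. Irgm1 had a pair of response element matches that overlap each other and no gamma-activated site motif. Ifi47 held neither motif in its 300 bases. The Igtp and Irgm2 stretches were identical at 44 of 45 bases and those of Tgtp1 and Tgtp2 at 37 of 45. Tgtp2 thus carried the same arrangement as Tgtp1, although its transcript did not pass the test. Both Tgtp stretches matched that of Igtp at 32 of 45 bases and that of Irgm2 at 33. Stretches so alike are not independent, so the counts of promoters with a motif cannot be weighed against the shares of all promoters. A match describes the letters only and shows neither binding nor a cause.

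**Figure D1:**
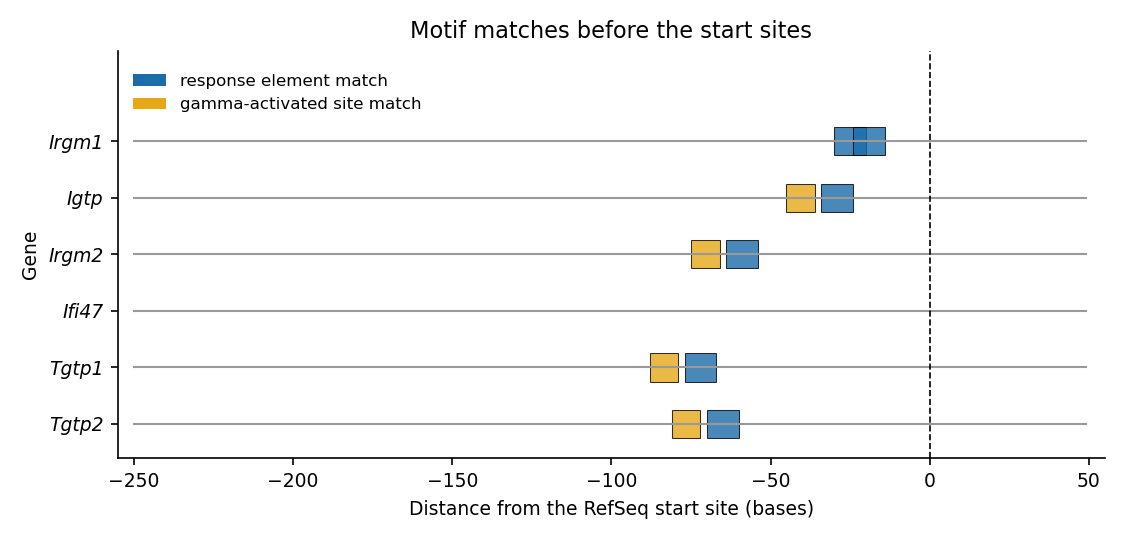
Positions of the motif matches in the 6 promoters, in bases from the RefSeq start site at 0. Boxes are matches of the response element and the gamma-activated site motifs, and lines span the 300 bases searched. The matches of 5 promoters lie between -88 and -15, and the Ifi47 line has none.

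The regulators carried most of the family's RNA, and each of them fell. Irgm1 (ENSMUSG00000046879), a regulator needed in mice for resistance to mycobacteria and many other intracellular microbes, is on the minus strand of GRCm38 chromosome 11, at 48861968 to 48871683. It stood at 78.1, 74.2 and 76.8 FPKM under the LPS label and at 25.5, 26.1 and 26.5 FPKM under the LPSKD label. Every library labelled LPSKD lay far below every library labelled LPS, and the values within each group were close to each other. Mean FPKM went from 76.4 ± 1.98 to 26.0 ± 0.517 (SD, n = 3 each). The log2 fold change was -1.55 ± 0.04 (SE), with a 95% interval of -1.65 to -1.45 (limma, adjusted p = 2.36e-06). These values rest on 2266 to 2384 fragments per library labelled LPS and 772 to 827 per library labelled LPSKD.

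Igtp (ENSMUSG00000078853; chromosome 11, 58199556 to 58207591, plus strand) encodes the regulator Irgm3, which mice need to control Toxoplasma. It stood at 9.68, 12.0 and 9.15 FPKM under the LPS label and at 3.88, 5.53 and 4.92 FPKM under the LPSKD label. The groups did not overlap, and replicate 2 was the highest library of both. Mean FPKM went from 10.3 ± 1.49 to 4.78 ± 0.833 (SD, n = 3 each), and the log2 fold change was -1.09 ± 0.15 (SE; limma, adjusted p = 0.00770). Its 95% interval was -1.45 to -0.74. Whether Igtp fell by less than Irgm1 was not resolved, since the log2 ratio of Irgm1 over Igtp overlapped between the groups (exact permutation test, two-sided p = 0.2). With fitted variances not allowed to depend on the expression level, the adjusted p of Igtp from limma was 0.0533.

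Irgm2 (ENSMUSG00000069874; chromosome 11, 58199618 to 58222782, plus strand) encodes a regulator that restrains the caspase-11 inflammasome, the cytosolic sensor of LPS. It stood at 5.10, 6.51 and 7.03 FPKM under the LPS label and at 1.44, 2.79 and 2.45 FPKM under the LPSKD label. All 3 libraries labelled LPSKD were lower than all 3 labelled LPS. Mean FPKM went from 6.21 ± 1.00 to 2.22 ± 0.699 (SD, n = 3 each), and the log2 fold change was -1.48 ± 0.24 (SE; limma, adjusted p = 0.0156). The call was lost without LPS replicate 2, at -1.44 with an adjusted p of 0.0511 from limma, and without LPS replicate 3, at -1.38 with an adjusted p of 0.0787. It was also lost with variances that did not depend on level (limma, adjusted p = 0.0743). In GENCODE M21 the Irgm2 gene model overlaps Igtp on the same strand, and 16.0% of the 31-base stretches of its coding sequence also occur in a transcript of another gene, so fragments could be shared between these genes.

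**Figure D2:**
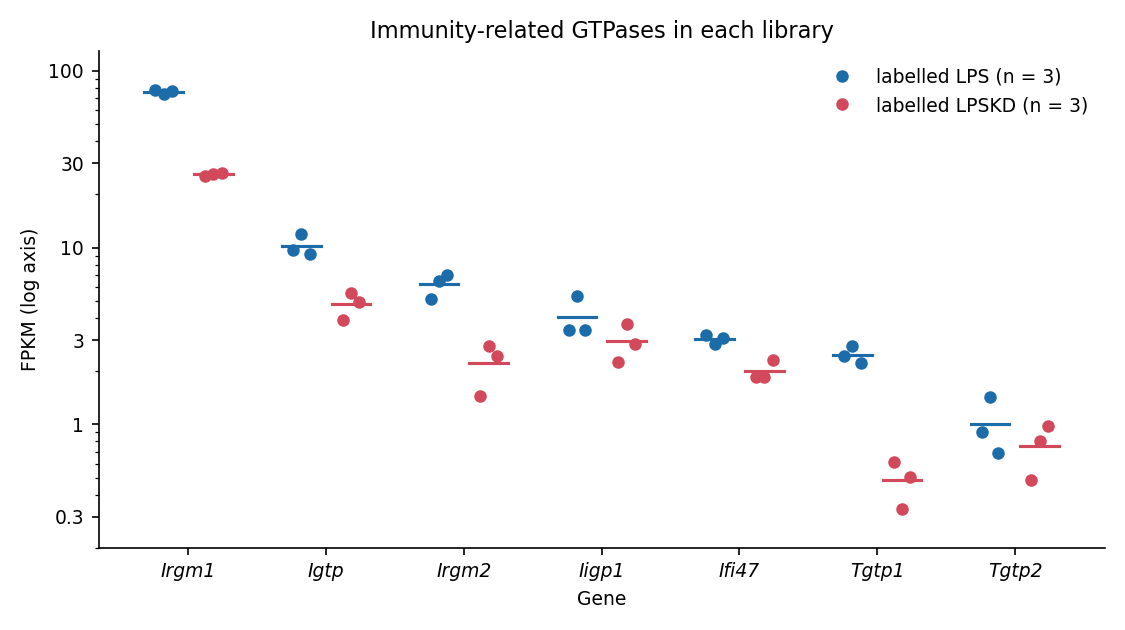
FPKM of each immunity-related GTPase in the 6 libraries, on a log axis. Points are single libraries, coloured by label, and short lines are the means of 3 libraries. The groups stand apart for Irgm1, Igtp, Irgm2, Ifi47 and Tgtp1 and overlap for Iigp1 and Tgtp2.

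The effectors were expressed at far lower levels than Irgm1, and of the 4 Tgtp1 passed the test, a call that rests on how fragments were divided between it and Tgtp2. Tgtp1 (ENSMUSG00000078922; chromosome 11, 48985327 to 48994172, minus strand) and Tgtp2 (ENSMUSG00000078921; chromosome 11, 49057194 to 49064206, minus strand) both encode the effector Irgb6, which is among the first to reach the vacuole of Toxoplasma. Tgtp1 stood at 2.42, 2.78 and 2.24 FPKM under the LPS label and at 0.611, 0.333 and 0.506 FPKM under the LPSKD label. Its groups were widely apart, although the low values stand for only 10 to 19 fragments per library. Mean FPKM went from 2.48 ± 0.274 to 0.483 ± 0.14 (SD, n = 3 each), and the log2 fold change was -2.17 ± 0.27 (SE; limma, adjusted p = 0.00438). This value leans on the pseudocount: with 1 in place of 0.1 the log2 fold change was -1.23, still called (limma, adjusted p = 0.00263). Over the alternatives the adjusted p of Tgtp1 ran from 0.00122 (voom) to 0.0329 (limma with a block for the replicate number).

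Tgtp2 did not pass the test. It stood at 0.904, 1.42 and 0.690 FPKM under the LPS label and at 0.482, 0.80 and 0.979 FPKM under the LPSKD label. The groups overlapped, with LPSKD replicate 3 above 2 of the 3 libraries labelled LPS. The log2 fold change was -0.36 with a 95% interval of -1.21 to 0.48 (limma, adjusted p = 0.675), which includes both no change and a fall as large as that of Igtp. Tgtp1 stood above Tgtp2 in all 3 libraries labelled LPS and below it in 2 of the 3 labelled LPSKD, with log2 ratios of Tgtp1 over Tgtp2 of 1.33, 0.92 and 1.56 against 0.29, -1.05 and -0.83. The difference of the mean log2 ratios was -1.80 (exact permutation test, two-sided p = 0.1, the smallest that 3 against 3 libraries can give).

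The split between this pair rests on very little sequence. Their coding sequences of 1245 bases were identical at 1241 bases (99.7%), and the differing bases, counted from the first base of the coding sequence with the Tgtp1 base first, are G270C, C408T, C729T and C735A. The longest stretch without a difference covers 510 bases, from position 736 to the last base. The 30 bases at positions 720 to 749 are printed 5′ to 3′ because a fragment there can be assigned to a copy, with the differing bases in capitals. They come from GENCODE M21 transcripts on GRCm38, at chr11:48987128-48987157 for Tgtp1 and chr11:49058995-49059024 for Tgtp2, both on the minus strand.
Tgtp1: ccacaagcgCcacgtCttctcactgtcttt
Tgtp2: ccacaagcgTcacgtAttctcactgtcttt

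Of the 31-base stretches in the coding sequence, 91.9% for Tgtp1 and 94.3% for Tgtp2 occur in another gene's transcript. Of these stretches, 1116 are common to the pair, and 31 of Tgtp1 and 61 of Tgtp2 also occur in Gm12185, an IRG-like gene whose model overlaps Tgtp1 on the same strand. The values of either copy alone are therefore uncertain. Their sum does not depend on how fragments were divided between the pair: it was 3.48 ± 0.649 FPKM under the LPS label and 1.24 ± 0.215 under the LPSKD label (SD, n = 3 each). The log2 fold change of the sum was -1.42 (limma, adjusted p = 0.00907), so the values assigned to the pair together fell. How fragments that match several genes were treated is not known here, and sharing with Gm12185 was not removed by summing.

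Ifi47 (ENSMUSG00000078920; chromosome 11, 49076587 to 49096974, plus strand), the effector Irgd, did not pass the test although its groups stood apart. It stood at 3.19, 2.84 and 3.08 FPKM under the LPS label and at 1.84, 1.84 and 2.31 FPKM under the LPSKD label. All 3 values of the libraries labelled LPSKD were below the lowest of those labelled LPS. The log2 fold change was -0.59 ± 0.16 (SE), with a 95% interval of -0.96 to -0.21, and it did not pass the threshold after adjustment (limma, adjusted p = 0.112). No 31-base stretch of its coding sequence was shared with another gene.

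Iigp1 (ENSMUSG00000054072; chromosome 18, 60376027 to 60392634, plus strand), the effector Irga6, is the member that lies apart from the others in the genome. It stood at 3.43, 5.31 and 3.43 FPKM under the LPS label and at 2.26, 3.72 and 2.86 FPKM under the LPSKD label. The groups overlapped, since LPSKD replicate 2 lay above 2 of the 3 libraries labelled LPS, and replicate 2 was the highest of both groups. The log2 fold change was -0.45 with a 95% interval of -0.98 to 0.08 (limma, adjusted p = 0.365). Of the 31-base stretches in its coding sequence, 15.8% occur in another gene, most of them in Gm4951.

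**Figure D3:**
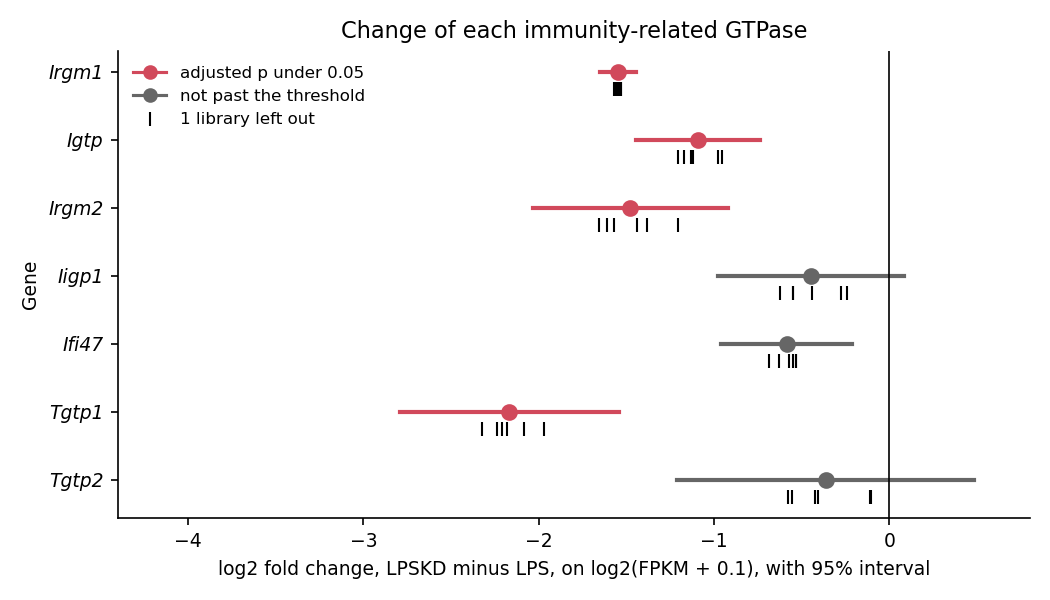
Log2 fold change of each member, LPSKD minus LPS, on the log2(FPKM + 0.1) scale from limma. Points are estimates, bars are 95% intervals, and the vertical line marks no change. The 3 regulators and Tgtp1 passed the threshold, and the intervals of Iigp1 and Tgtp2 cross 0.

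The order of the members by level, in FPKM, was much the same in both groups at the top and differed below. In the libraries labelled LPS it ran Irgm1, Igtp, Irgm2, Iigp1, Ifi47, Tgtp1 and Tgtp2, and of these neighbours only Irgm2 and Iigp1 overlapped. In those labelled LPSKD, Iigp1 came before Irgm2 and Tgtp2 before Tgtp1. The values of Iigp1 and Irgm2, of Irgm2 and Ifi47 and of Tgtp2 and Tgtp1 overlapped there. Among the 11723 tested genes Irgm1 ranked 3053 by mean FPKM over the 6 libraries, whereas the other members lay between 8644 and 11157.

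Summed over the 7 members, FPKM came to 102.8, 105.0 and 102.4 under the LPS label and to 36.0, 41.1 and 40.5 under the LPSKD label. The sum was 2.64 times lower in the libraries labelled LPSKD, from 103.4 ± 1.39 to 39.2 ± 2.80 (SD, n = 3 each). Most of that loss was Irgm1, which took 70.7% to 75.9% of the sum under the LPS label and 63.5% to 70.8% under the LPSKD label. Without Irgm1 the sum was 27.1 ± 3.29 and 13.2 ± 2.36, which is 2.05 times lower.

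The regulators and the effectors made up different parts of the sum. The regulators together went from 92.8 ± 0.170 to 33.0 ± 1.95 FPKM, 2.81 times lower, and the 4 effectors from 10.6 ± 1.55 to 6.18 ± 0.852, 1.71 times lower (SD, n = 3 each). Iigp1 made up 3.34% to 5.06% of the sum under the LPS label and 6.28% to 9.04% under the LPSKD label. Ifi47 went likewise from between 2.70% and 3.10% to between 4.48% and 5.70%, and Tgtp1 from between 2.18% and 2.64% to between 0.811% and 1.70%. These shares do not overlap between the groups, and those of Igtp and Irgm2 do. The log2 ratio of Irgm1 over Ifi47 was 4.57, 4.66 and 4.59 against 3.72, 3.75 and 3.47, so Irgm1 was lower relative to Ifi47 in all 3 libraries labelled LPSKD. With 21 pairs of members compared, no ratio could pass after adjustment (exact permutation tests, two-sided, smallest p = 0.1 and smallest adjusted p = 0.14). The ratio of Irgm1 over Irgm2 overlapped, with a difference of -0.07 (exact permutation test, two-sided p = 0.8).

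**Figure D4:**
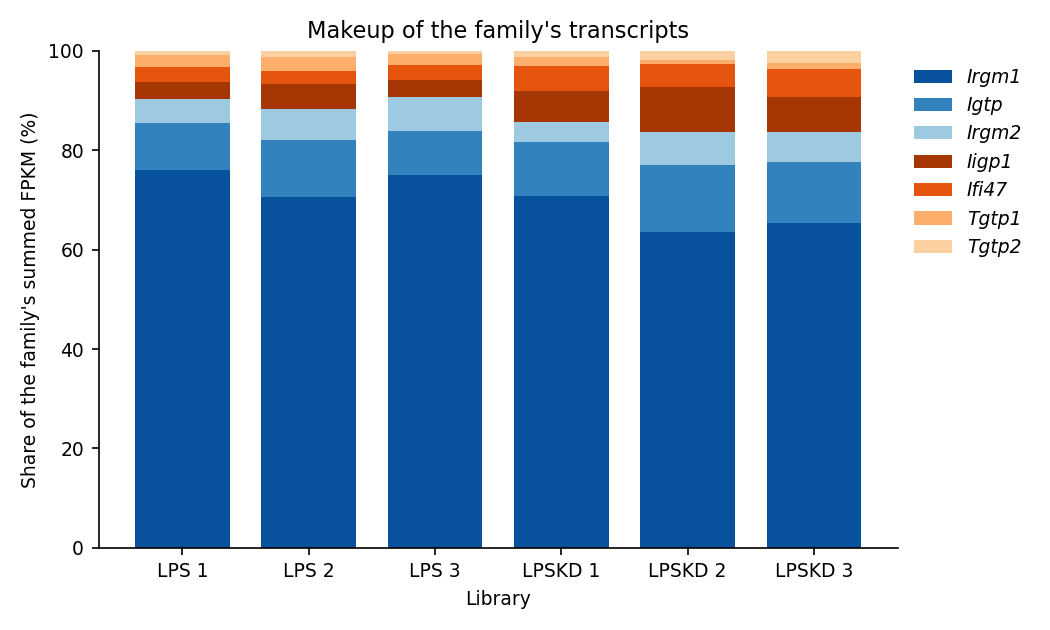
Share of the summed FPKM of the 7 members taken by each member, in percent, with 1 bar per library. Irgm1 takes 63.5% to 75.9% of every bar, and the shares of Iigp1 and Ifi47 are larger in the 3 bars labelled LPSKD.

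The coding sequences show how far the members are related. Apart from the Tgtp pair, the closest were Irgm2 and Igtp at 70.1% identical bases, then Irgm1 and Igtp at 67.3% and Irgm1 and Irgm2 at 66.0%. Iigp1 and Ifi47 were 61.6% identical. The 3 regulators, which all fell, are thus nearer to each other than to any effector in sequence.

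On chromosome 11, 6 of the members lie in a pair of clusters. None of the other genes tested there was called lower (limma), although those between Irgm1 and Ifi47 all had lower, non-overlapping values under the LPSKD label. Irgm1, Tgtp1, Tgtp2 and Ifi47 span 235 kb, and Igtp and Irgm2 span 23.2 kb. Within 100 kb of these clusters, a window set after the members' values were seen, 13 non-members were tested: 0 were called lower by limma and 0 by voom on the recovered fragments, with 2 and 3 lower at an unadjusted p under 0.05. The gene Gm12184 was called higher by limma, by 0.29 on the log2 scale (adjusted p = 0.0499), and not by voom. Psme2b was at -0.27 and did not pass (limma, adjusted p = 0.108), with every library labelled LPSKD below every library labelled LPS. The IRG-like genes Gm12185, 9930111J21Rik1 and 9930111J21Rik2 were apart in the same direction. Together with Psme2b they were all the tested non-members between Irgm1 and Ifi47. Such lower, non-overlapping groups held for 13.2% of all tested genes. Gm12184 and Psme2b were picked out after their values were seen.

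Other genes with the sequence of this family were looked at in the same way. Of 12 such IRG-like genes listed, 9 were in the table, 5 passed the filter and none was called by limma or by voom, with 1 and 2 lower at an unadjusted p under 0.05. The log2 fold changes were -0.64 for Gm12185, -0.50 for Gm4951, -0.33 for 9930111J21Rik2 and -0.26 for 9930111J21Rik1. Adjusted p from limma lay between 0.209 and 0.490. In these 4 of the 5 tested, every library labelled LPSKD was below every library labelled LPS, against 13.2% of all tested genes. Irgq, a family member with no intact GTPase site, was at 0.02 (limma, adjusted p = 0.923). Their median of -0.33 lay between that of all tested genes and that of the 7 members.

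Interferon sensing, which drives these GTPases, was split. Of its 12 listed genes, all tested, 3 fell, 2 rose and 7 did not pass, with a median of -0.02. The shares over all tested genes were 1.66% lower and 1.57% higher. Irf9, the DNA-binding part of the complex that type I interferon activates, fell from 21.2 ± 0.422 to 5.48 ± 0.883 FPKM, and Stat2, which binds it, fell from 14.8 ± 0.996 to 10.3 ± 0.651 (SD, n = 3 each). On the log2 scale the changes were -1.94 and -0.52 (limma, adjusted p = 6.51e-05 and 0.0131). Both chains of the receptor for interferon gamma rose, Ifngr1 by 0.39 and Ifngr2 by 0.29 on the log2 scale (limma, adjusted p = 0.000892 and 0.0218). The kinases Jak1, Jak2 and Tyk2 lay between -0.03 and 0.04, and Irf1, a factor induced by interferon gamma, was at -0.19 (limma, adjusted p = 0.353). The number lower was 2 without LPS replicate 3, LPSKD replicate 1 or LPSKD replicate 2, and the number higher was 1 without LPS replicate 2 or any single library labelled LPSKD.

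The 5 listed interferons were almost undetected at this depth, and none passed the filter. Ifnb1, interferon beta, was at 0.147, 0.147 and 1.20 FPKM under the LPS label and at 0, 0 and 0.0720 under the LPSKD label. The highest value was a single library, LPS replicate 3, with 16 fragments, and the other 5 libraries had 0 to 2. Ifng, interferon gamma, was above 0 in 1 library. Ifnl2 was at 0.0694, 0.208 and 0.0707 FPKM under the LPS label, 1 to 3 fragments, and at 0 under the LPSKD label. The groups overlapped for Ifnl3.

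The guanylate-binding proteins, which follow the GTPases to the vacuole, were split. Of 11 listed, 8 were tested, 3 fell, 1 rose and 4 did not pass, with a median of -0.47. The shares over all tested genes were 1.66% lower and 1.57% higher. Gbp2b fell by 2.12 on the log2 scale, Gbp3 by 1.12 and Gbp9 by 0.46 (limma, adjusted p = 0.0432, 0.0259 and 0.0288). Gbp8 rose from 19.0 ± 1.10 to 31.2 ± 3.13 FPKM (SD, n = 3 each), by 0.71 on the log2 scale (limma, adjusted p = 0.00323). In GENCODE M21 the gene models of Gbp8, Gbp9 and Gbp4 overlap on the same strand. How far fragments are shared between them was not examined, so the opposite changes of Gbp8 and Gbp9 are uncertain. The 3 falls were the weaker calls: the count was 0 without LPS replicate 3, LPSKD replicate 1 or LPSKD replicate 3, 1 without LPS replicate 1 or LPS replicate 2, and 2 without LPSKD replicate 2. With the replicate number as a block it was also 0.

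Gvin1, a very large interferon-inducible GTPase, fell by 0.83, and Gm4070, listed with it, fell by 0.32 on the log2 scale (limma, adjusted p = 0.0123 and 0.0419). These were both of the tested genes among 5 other inducible GTPases, and Mx1 and Mx2 were under the filter. How far fragments are shared between Gvin1 and Gm4070 was not examined. The count of 2 became 1 without any single library labelled LPS or LPSKD replicate 1, and 0 without LPSKD replicate 2 or LPSKD replicate 3.

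The machinery that attaches ATG8 proteins to membranes moved little. Of 10 genes tested, 1 rose, 9 did not pass and none fell by limma or by voom, also at an unadjusted p under 0.05 (0 lower). Their median was -0.01. Atg5, Atg7 and Atg3, needed for the attachment, had log2 fold changes of -0.04, -0.01 and -0.06. Gabarapl2, the ATG8 protein that acts with Irgm2, was at -0.05 (limma, adjusted p = 0.652). Gabarapl1 rose by 0.29 on the log2 scale (limma, adjusted p = 0.0218), a call that was lost without LPS replicate 3 or any single library labelled LPSKD.

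Among ubiquitin factors that act at vacuoles, 2 of 4 fell, against 1.66% of all tested genes called lower. The study chose Trim21 as a target of Stat3 partly from its RNA-seq of these groups, so its fall is not a separate finding. Trim21, a ubiquitin ligase that also binds antibodies, went from 6.51 ± 0.307 to 3.04 ± 0.482 FPKM, and Rnf213, a giant ubiquitin ligase, from 44.5 ± 1.89 to 29.6 ± 0.664 (SD, n = 3 each). On the log2 scale the changes were -1.08 and -0.59 (limma, adjusted p = 0.00549 and 0.000729). Traf6, another ligase, and Sqstm1, the adaptor p62, were at -0.07 and 0.05 and did not pass. On the same scale Irgm1 fell by 1.55, and Tgtp1 fell by 2.17.

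**Figure D5:**
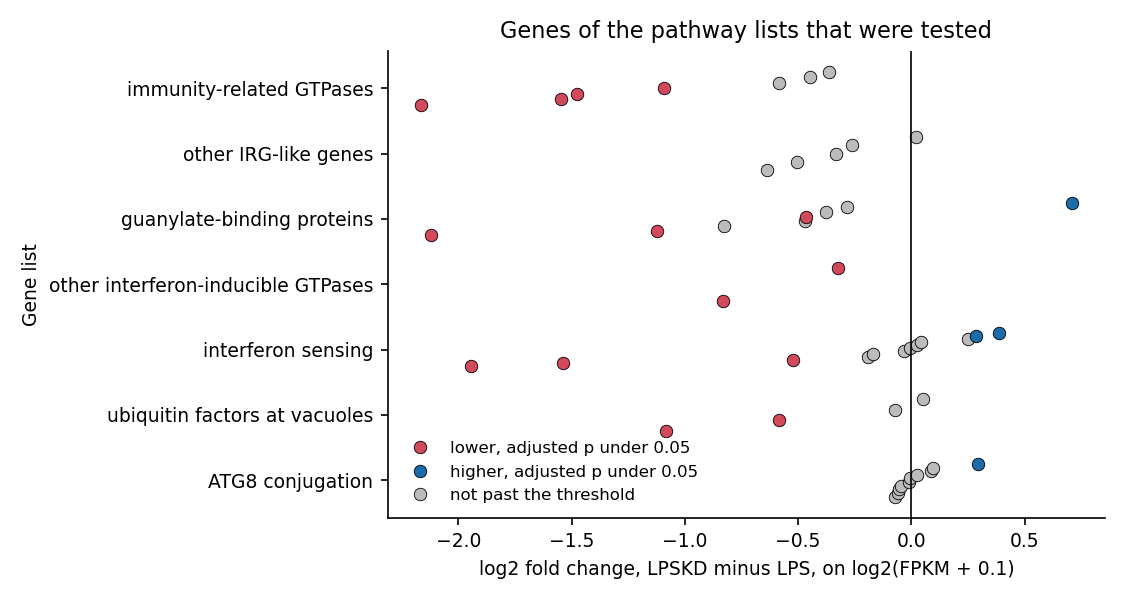
Log2 fold change, LPSKD minus LPS, of every tested gene of the family and of the lists around it, on the log2(FPKM + 0.1) scale from limma. Points are genes, coloured by whether they passed the threshold and in which direction. The members lie between -2.17 and -0.36, whereas the ATG8 genes lie between -0.07 and 0.29.

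Markers of other cell types did not move as a group. Of 9 leukocyte markers, 6 were tested, 1 rose and none fell by limma or voom, with 1 lower at an unadjusted p under 0.05, and the summed FPKM was 88.5 to 92.1 under the LPS label and 85.9 to 102.3 under the LPSKD label. Most of that sum was Ly6g, Csf1r, Lyz2 and Cd68, at 28.2, 24.4, 21.6 and 13.7 FPKM on average under the LPS label, and Csf1r, the receptor for a macrophage growth factor, rose to 33.3 ± 0.583. Itgam was at or near 0, and Ptprc averaged 0.880 ± 0.202 and 0.818 ± 0.387 FPKM (SD, n = 3 each). None of the 3 fibroblast and 2 endothelial markers was called by limma or voom or had an unadjusted p under 0.05 (0 of 5), and their sums overlapped between the groups. Tubule markers did move: of 9 tested, Pax2, Pax8, Aqp1 and Cdh16 rose by 0.27 to 0.93 on the log2 scale, and Krt18 fell by 0.15. Their part in the fall of the GTPases was not tested.

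Outside the family, the genes whose log2(FPKM + 0.1) over the 6 libraries followed the mean standardised profile of the members most closely included Dnajc13, Pcf11, 1110004F10Rik and Knstrn, with Pearson r of 0.999, 0.992, 0.992 and 0.992. The members themselves had r from 0.707 for Tgtp2 to 0.994 for Igtp, which the profile includes. The 6 libraries form 2 groups, so r here describes a shared difference between the groups and carries no test. The log2 fold changes of these 4 genes were small, from -0.18 to -0.08, and none passed the threshold by limma, although all 4 had an unadjusted p under 0.05 and voom called Dnajc13 and Pcf11.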

How the data were processed

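RNA-seq libraries of mTECs were grouped by their titles, 3 labelled LPS and 3 labelled LPSKD. The authors deposited FPKM values, 1 per gene and library. The submitters' processing notes name HISAT2 2.0, StringTie 1.3.0 and Bowtie 0.12.2 and both a mouse and a human build, without roles; annotation and filters are not given in the sources used here. Of 22442 identifiers, 22399 had a symbol in GENCODE M21. Multiplied by library total and a coding length allowed to be as much as 10 bases longer, the values gave whole fragments, within 0.01, for 97.8% of the 16837 genes above 0, so gene coordinates are from GENCODE M21 on GRCm38. Counting error applies on top of replicate error for genes of few fragments.

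Tests used limma 3.58.1 (lmFit, eBayes with trend) in R 4.3.3 on log2(FPKM + 0.1), mean FPKM of at least 0.5, no covariates, Benjamini-Hochberg over 11723 genes at 0.05. Single ratios used exact two-sided permutation tests over 20 label assignments. Sequences were handled with Biopython 1.88 and plots drawn with matplotlib 3.10.9. The fit was tested on simulated data. Named genes are the members, Stat3, the listed pathway and marker genes and the 5 genes most like the family profile. The cluster neighbours Gm12184 and Psme2b were named as well. The members, lists and tests were chosen with earlier results of these data known. Alternatives were pseudocounts of 1 and 0.01, filters at 1 and 0.1 and none, quantile normalization, median centring, a block for the replicate number, eBayes without trend, each library left out, voom on recovered fragments, and Tgtp1 and Tgtp2 summed. ChIP-seq samples were not analysed here, and the protein comparison that had been planned was not run. Some genes of the lists are not reported here by name.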

Additional observations from a re-analysis of the deposited data

How the results depend on the processing

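No result changed direction past the threshold, and Irgm1 and Tgtp1 stayed called lower under every alternative run on them, at log2 fold changes of -1.57 to -1.52 and -2.37 to -1.23. Ifi47, Iigp1 and Tgtp2 stayed uncalled under each, except that Tgtp2 taken with Tgtp1 as a sum was called, at -1.42 (limma, adjusted p = 0.00907). With a filter at a mean FPKM of 1, Tgtp2 was not tested. eBayes without trend called 2 members, and Irgm2 (-1.48, adjusted p = 0.0743) and Igtp (-1.09, adjusted p = 0.0533) were lost. Leaving out each library, Irgm2 ranged from -1.66 to -1.21, with the call lost without LPS replicate 2 or LPS replicate 3, and 3 to 4 members were called.

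Same-numbered libraries of the groups did not deviate together (r of -0.0160, -0.00388 and -0.0426 over 11723 genes), so the numbers do not pair them. The replicate block changed no call of a member (still 4 lower). Over all tested genes the block called 108 lower and 105 higher, against 195 and 184. eBayes without trend called 84 and 56, voom called 309 lower and 273 higher, and leaving out each library gave 80 to 154 lower and 76 to 202 higher.

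Of the lists, interferon sensing had 1 gene higher without trend and under the block, and 1 to 2 with a library left out. Guanylate-binding proteins had 0 lower without filter, without trend and under the block, and 0 to 2 with a library left out. Other inducible GTPases had 1 lower without filter, with quantile normalization and under the block, 0 without trend, and 0 to 1 with a library left out. ATG8 conjugation had 0 higher without trend and 0 to 1 with a library left out. The causes were not tested. Among the members, Tgtp1 and Tgtp2 had the fewest fragments, 10 to 86 per library.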
